A study of Homo sapiens with 12 samples.

Results

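SCC15 and SCC25, a pair of established cell lines grown from human squamous cell carcinomas of the tongue, were compared without drug. The comparison takes the 6 libraries of DMSO-treated cells out of the 12 RNA-seq libraries of the series, 3 of SCC15 and 3 of SCC25. DMSO is the solvent in which the compound of the study was given, the cells had been exposed to it for 24 h, and all libraries carry the genotype label WT. The other 6 libraries hold cells given squamocin for 24 h, which the labels call ACGs (annonaceous acetogenins), and they are used below to ask which line differences were also present with the compound. The study used both lines as models of head and neck squamous cell carcinoma (HNSCC) to follow what squamocin does to EZH2 and MYC. Each line comes from 1 tumour, and n = 3 counts libraries of that line.

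The deposited tables list 29657 genes for SCC15 and 31055 for SCC25, of which 26485 are in both, and 16942 of these had a mean of at least 10 normalized counts over the 6 libraries and were tested. A normalized count is the number of reads on a gene divided by a library's scaling factor, set here across all 6 libraries together. The reads on genes numbered 17717192 to 19649275 per SCC15 library and 20314348 to 22748845 per SCC25 library. All differences are log2 of the normalized count plus 1 in SCC15 minus the same in SCC25, so a positive value means higher in SCC15, and values after ± are standard deviations over 3 libraries. With limma and Benjamini-Hochberg adjustment at 0.05, 13742 genes (81.1%) differed, 6824 (40.3%) higher in SCC15 and 6918 (40.8%) higher in SCC25. A second rule asked for a difference over 2-fold as well, which 6315 genes (37.3%) met, 3057 (18.0%) higher in SCC15 and 3258 (19.2%) higher in SCC25. These shares of all genes are the background for the counts of list members given below. The values of the libraries of a line lay wholly above those of the other line for 6988 genes (41.2%) with SCC15 higher and 7039 (41.5%) with SCC25 higher, and an exact permutation test of a single gene cannot give a p below 0.1 with 3 libraries against 3. The labels do not say whether the 3 libraries of a line came from separate cultures, so the p-values measure only the spread between these libraries, which may be technical. The lines were also tabulated separately, so that a difference in how their libraries were made cannot be told apart from a difference between the lines.

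Stratified squamous epithelium rests on a basal layer of cells that are held to each other by desmosomes and to the basement membrane by hemidesmosomes. Their identity depends on the transcription factor TP63, and they make the keratins KRT5 and KRT14. Carcinomas of this epithelium can keep that state, turn towards terminal differentiation, or lose cell junctions and take on mesenchymal genes, a change known as epithelial-mesenchymal transition. The labels name the cells of both lines oral squamous cells. Of 18 markers of squamous epithelium, 18 had a mean of at least 10 in SCC25 and 16 in SCC15, and their summed level was 157117 to 164907 per SCC15 library and 118946 to 120002 per SCC25 library. In SCC15 that sum rested on KRT17, and 4 markers of the basal layer, TP63, KRT5, DSC3 and DSG3, were near 0 there. Summed levels in SCC15 and SCC25 respectively were 931 to 1031 and 882 to 928 for 9 fibroblast genes, 619 to 665 and 463 to 563 for leukocyte genes, 199 to 223 and 110.4 to 149.995 for endothelial genes, 434 to 455 and 207 to 235 for melanocyte genes and 299 to 364 and 1059 to 1120.0 for skeletal muscle genes. Markers of glandular and simple epithelium, a list led by KRT7, KRT8 and KRT18, summed to 66932 to 69202 in SCC15 and 18380 to 18951 in SCC25. Of the fibroblast markers, COL3A1 (542 ± 31.9), COL1A1 (184 ± 12.2) and DCN (160.0 ± 14.5) led in SCC15 and COL1A1 (654 ± 23.3) and PDGFRB (214 ± 7.03) in SCC25. The other sums rested mostly on single genes. The muscle sums rested on TTN (315 ± 29.2 in SCC15 and 1086 ± 29.8 in SCC25), the leukocyte sums on CD14 and the endothelial sums on PECAM1. The melanocyte sum in SCC15 rested on MITF (368 ± 14.1, and 49.0 ± 10.3 in SCC25). PMEL went the other way (40.1 ± 1.19 in SCC15 and 130 ± 4.52 in SCC25). Whether the SCC15 libraries hold the line as first described was not tested.

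TP63 and several genes of the basal squamous layer were expressed in SCC25 and near 0 in SCC15. TP63 (ENSG00000073282, chromosome 3, 189631416 to 189897279 on GRCh38), which encodes the p63 factor that maintains basal epithelial cells, had normalized counts of 20.8, 15.4 and 27.7 in the SCC15 libraries and 5066, 5213 and 5086 in the SCC25 libraries (log2 difference -7.88, standard error 0.137, limma adjusted p = 1.22e-17). KRT5 (ENSG00000186081, chromosome 12, 52514575 to 52520687), the basal type II keratin, stood at 6.23, 12.5 and 15.96 in the SCC15 libraries and 6405, 6286 and 6473 in the SCC25 libraries (log2 difference -9.08, standard error 0.203, limma adjusted p = 3.06e-16). The groups of libraries were far apart for both genes, and the few SCC15 reads (62 for TP63 and 34 for KRT5 over 3 libraries) show them at the edge of detection in that line. KRT15, a basal keratin linked to epithelial progenitor cells, had 21.8, 20.3 and 33.0 in the SCC15 libraries and 12199, 12069 and 11996 in the SCC25 libraries (-8.89). KRT14, the usual partner of KRT5, went the other way, at 916, 924 and 936 in the SCC15 libraries and 391, 439 and 436 in the SCC25 libraries (1.13). SOX2, a factor often active in squamous carcinoma, had a mean under 10 over the 6 libraries and was not tested, at 1.04, 0 and 0 in SCC15 against 10.04, 12.2 and 15.1 in SCC25.

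Of the 19 squamous lineage factors tested, 2 were over 2-fold higher in SCC15 and 10 in SCC25 (10.5% and 52.6%, against 18.0% and 19.2% of all genes tested), with a median log2 difference of -2.36 against -0.0036 over all genes. That median was -1.56 without SCC25 replicate 2, -0.83 over genes with at least 10 in every library and -0.72 over all genes above 0. The epithelial ETS factor ELF3 (42.6 ± 6.53 in SCC15 and 3983 ± 81.4 in SCC25) was higher in SCC25. Further members higher in SCC25 over 2-fold were SOX15 (-5.05), OVOL1 (-5.70), OVOL2 (-2.36), ZNF750 (-4.58), ELF5 (-4.02), EHF (-3.82) and GRHL1 (-2.97), besides TP63. GRHL2, a factor that keeps epithelial genes on, is listed in the SCC25 table alone, at 1772 ± 38.0, and gets no fold. KLF4 (2109.6 ± 86.3 in SCC15 and 715 ± 21.3 in SCC25, 1.56), which acts in barrier formation, was 1 of the 2 members over 2-fold higher in SCC15, and not the one with the larger difference. BNC1 (0.20), KLF5 (0.35) and TRIM29 (0.96) differed by less than 2-fold.

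MIR205HG, the noncoding host gene of the epithelial microRNA miR-205, followed TP63 with 1.04, 0 and 1.06 in the SCC15 libraries and 11219, 11558 and 11436 in the SCC25 libraries, that is 2 reads in all against 34966 and a SCC25 to SCC15 ratio of 16754 (95% counting interval 4638 to 138352). It had the most negative log2 difference of the noncoding genes named by the rule. The mature microRNA was not measured. Its sequence is given because miR-205 is known to target ZEB1 and ZEB2, and the seed, bases 2 to 8, is in capitals (chr1:209432166-209432187 on GRCh38.p14, plus strand, from RefSeq).
hsa-miR-205-5p: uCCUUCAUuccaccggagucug

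The keratins, the intermediate filament proteins by which epithelia are classified, differed in sum and in composition. The summed level per kilobase of exon of the 17 keratins in both tables was 62561 ± 1532 in SCC15 and 11290.1 ± 141 in SCC25, a difference of 5.54-fold. Keratins listed for a single line are not in this sum. For SCC25 these were 4 stratified keratins, 2 of them with a mean of at least 10, and 1 simple keratin. For SCC15 there was 1 stratified keratin, with a mean under 10. Per kilobase of exon, KRT17 made up 73.0% ± 0.28 of this sum in SCC15, followed by KRT7 with 13.2% ± 0.44, KRT8 with 6.36% ± 0.17 and KRT18 with 3.59% ± 0.24. In SCC25 none of the 17 held more than 20.4% of the sum, with KRT18 at 20.4% ± 0.20, KRT17 at 20.4% ± 0.40, KRT15 at 17.9% ± 0.38, KRT8 at 13.7% ± 0.20, KRT5 at 13.7% ± 0.26 and KRT80 at 7.28% ± 0.15. In the order of levels in SCC25, KRT18 and KRT17 did not differ beyond their spread, nor did KRT8 and KRT5.

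KRT17 (ENSG00000128422, chromosome 17, 41619441 to 41624842), a keratin of wounded and hyperproliferative epithelium, had normalized counts of 140371, 137061 and 133075 in the SCC15 libraries and 6635, 7006 and 7013 in the SCC25 libraries (log2 difference 4.31, standard error 0.0257, limma adjusted p = 5.11e-23). KRT7 (ENSG00000135480, chromosome 12, 52232520 to 52252186), a keratin of simple and glandular epithelium, had 35109, 31994 and 32327 in the SCC15 libraries and 383, 444 and 469 in the SCC25 libraries (log2 difference 6.26, standard error 0.0560, limma adjusted p = 3.94e-21). Both were higher in every SCC15 library, by 19.9-fold and 76.8-fold. KRT16, a partner of KRT6 in stressed epithelium, was 3498 ± 22.2 in SCC15 and 408 ± 36.9 in SCC25 (3.10), and KRT8 was 27357 ± 294 in SCC15 and 10679 ± 165 in SCC25 (1.36). KRT18 (-0.033) and KRT19 (0.0026), also keratins of simple epithelium, did not pass the test. KRT6B was higher in SCC25, at 3.05 ± 2.07 in SCC15 and 142 ± 19.1 in SCC25, but KRT6A, KRT6B and KRT6C are near-identical copies, as are stretches of KRT14, KRT16 and KRT17, so reads may have been split between them. Over the list of 10 stratified keratins tested, 4 were over 2-fold higher in each line.

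Desmosomes bind epithelial cells through cadherins of the DSG and DSC families, which are anchored to keratin by plakoglobin (JUP), plakophilins and desmoplakin (DSP). 2 of 11 tested members were over 2-fold higher in SCC15 and 6 in SCC25. These were 18.2% and 54.5%, the first near the 18.0% of all genes and the second above their 19.2%. The median log2 difference of -1.86 was -0.85 over genes with at least 10 in every library. DSC3 (ENSG00000134762, chromosome 18, 30990008 to 31042815) had 1.04, 0 and 0 in the SCC15 libraries and 1739, 1821 and 1774 in the SCC25 libraries, with 1 read against 5451 and a ratio of 5224 (95% counting interval 937 to 206368). DSG3, the antigen of pemphigus vulgaris, had 3.11, 0 and 2.13 in SCC15 against 738, 756 and 718 in SCC25. DSC2 was 9.56 ± 2.54 in SCC15 and 415 ± 20.6 in SCC25 (-5.33). In contrast, DSG2, the desmoglein of simple epithelia, was 8173 ± 22.9 in SCC15 and 3141 ± 76.5 in SCC25 (1.38), and PKP1 was 495 ± 46.5 in SCC15 and 144 ± 11.9 in SCC25 (1.77). JUP (-1.88), PKP2 (-1.94) and PKP4 (-1.86) were higher in SCC25 over 2-fold, and DSP (-0.97), PKP3 (-0.74) and PERP (0.80) differed by less.

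Of the genes for hemidesmosomes, laminin-332 and integrins, 7 of 24 were over 2-fold higher in each line, and the median of 0.049 turned to -0.053 with the deposited scaling. COL17A1 (ENSG00000065618, chromosome 10, 104031286 to 104085957), the transmembrane collagen of the hemidesmosome, had 244, 247 and 242 in the SCC15 libraries and 14278, 14531 and 14557 in the SCC25 libraries (log2 difference -5.88, standard error 0.0333, limma adjusted p = 2.76e-23). ITGB4, the beta-4 integrin that carries the hemidesmosome, had 289.6, 228 and 268 in the SCC15 libraries and 13796, 14190.4 and 14102 in the SCC25 libraries (-5.75). Both were far higher in each SCC25 library, as was ITGB6 (2.07 ± 1.08 in SCC15 and 1568 ± 14.4 in SCC25), the epithelial integrin chain that activates latent TGF-beta. Higher in SCC15 were ITGA5 (21161 ± 448 in SCC15 and 2241 ± 39.2 in SCC25, 3.24), the alpha chain of the fibronectin receptor, ITGB5 (5754 ± 262 in SCC15 and 987 ± 11.3 in SCC25, 2.54) and COL7A1 (11044 ± 756 in SCC15 and 1677 ± 59.7 in SCC25, 2.72), the anchoring fibril collagen.

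Genes of epithelial junctions and identity had the lowest median of the lists, with 0 of 24 tested members over 2-fold higher in SCC15 and 20 in SCC25 (0% and 83.3%), and a median log2 difference of -3.75. CDH1 (ENSG00000039068, chromosome 16, 68737225 to 68835548), E-cadherin of the adherens junction, had 626, 618 and 675 in the SCC15 libraries and 6039, 5852 and 5832 in the SCC25 libraries (log2 difference -3.21, standard error 0.0389, limma adjusted p = 1.35e-19). RAB25, an epithelial vesicle GTPase, had 1.04, 0.964 and 0 in the SCC15 libraries and 1231, 1264 and 1215 in the SCC25 libraries, a ratio of 1817 (95% counting interval 503 to 15013). ESRP1, which directs epithelial splicing, had 2.08, 12.5 and 13.8 in the SCC15 libraries and 2538, 2522 and 2539 in the SCC25 libraries. No library of SCC15 reached the level of a SCC25 library for these genes, but CDH1 was still expressed in SCC15 while RAB25 was at the limit of detection. The protease PRSS8 (3.12 ± 2.11 in SCC15 and 2453 ± 31.6 in SCC25, -9.37), which activates epithelial sodium channels, EPCAM (13.9 ± 1.001 in SCC15 and 3340.1 ± 24.6 in SCC25, -7.81), the P-cadherin gene CDH3 (-5.08) and the tight junction genes CLDN7 (-5.46), CLDN4 (-4.64) and TJP3 (-4.49) were also higher in SCC25. The exceptions were TJP1 (0.55) and SPINT2 (-0.84), which differed by less than 2-fold, and ESRP2 and CXADR, which did not pass the test.

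The repressors ZEB1, SNAI1 and SNAI2 act on epithelial promoters through E-boxes. The E-box CAGGTG, whose reverse complement is CACCTG, was therefore searched on both strands in the 250 bases before gene starts. A RefSeq promoter sequence was matched by gene symbol for 11 of the 24 tested members of the epithelial list. The rest, CDH1, EPCAM and ESRP1 among them, were not searched. The E-box was present in 8 of these 11 (72.7%) and in 17.5% of all 35116 promoters (20.6% of the 27305 genes). Of the 8 members with it, 7 were over 2-fold higher in SCC25 (median -4.2), as were 3 of the 3 without it (median -2.32), and no member was over 2-fold higher in SCC15. The stretches of CRB3, a polarity gene (8.95 ± 3.54 in SCC15 and 571 ± 32.8 in SCC25, -5.90), RAB25 and CLDN7 that hold the motif are printed as examples of members with it, with the first match 228, 41 and 174 bases before the start, and the capitals mark the E-boxes. They lie at chr19:6464021-6464154 (plus strand, 3 of its 5 matches), chr1:156061094-156061149 (plus strand) and chr17:7262583-7262677 (minus strand, 2 of its 4 matches) on GRCh38.p14. A match is a description of letters and not a site of binding.
CRB3: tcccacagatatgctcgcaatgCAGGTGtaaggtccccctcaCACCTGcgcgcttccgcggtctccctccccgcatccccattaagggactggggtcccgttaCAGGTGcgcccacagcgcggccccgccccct
RAB25: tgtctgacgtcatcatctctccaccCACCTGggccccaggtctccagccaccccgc
CLDN7: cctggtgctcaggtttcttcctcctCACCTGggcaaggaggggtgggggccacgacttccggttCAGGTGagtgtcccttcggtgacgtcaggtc

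Mesenchymal transition genes did not mirror the epithelial list. 14 of 31 tested members were over 2-fold higher in SCC15 and 11 in SCC25, with a median log2 difference of 0.83 that was 0.24 over all genes above 0. ZEB1 (ENSG00000148516, chromosome 10, 31318495 to 31529814), a repressor of E-cadherin, had 652, 657 and 639 in the SCC15 libraries and 7.30, 5.10 and 1.008 in the SCC25 libraries (log2 difference 7.12, standard error 0.361, limma adjusted p = 1.42e-11). FN1, fibronectin, had 72807, 68256 and 72639.5 in the SCC15 libraries and 1493, 1468 and 1459.7 in the SCC25 libraries (5.59). COL3A1 had 517, 530.5 and 578 in SCC15 against 1.83, 0 and 0 in SCC25, with 2 reads in SCC25 and a ratio of 830.1 (95% counting interval 229 to 6860.3). These 3 were higher in every SCC15 library, and SERPINE2 (4.37), COL5A1 (4.11), SNAI1 (2.40), LOXL2 (1.87) and LOX (1.77) were higher there too. Other matrix genes of the same list were higher in SCC25. COL4A2, a chain of type IV collagen, had no read in any SCC15 library and 4604, 4599.9 and 4532 in SCC25, at least 4488-fold higher when SCC15 is set to 3 reads over its libraries. COL4A1, its partner, had 0, 0 and 3.19 in SCC15 against 1917, 1920.3 and 2019 in SCC25. SPARC, a collagen-binding matrix protein, had 0, 0 and 3.19 in SCC15 against 3305, 3309 and 3433 in SCC25, a ratio of 3281 (95% counting interval 1122 to 15912). N-cadherin (CDH2, 1.32 ± 1.46 in SCC15 and 209 ± 18.5 in SCC25, -6.71) was also higher in SCC25. VIM, the mesenchymal intermediate filament, was below the filter with 1.04, 3.86 and 3.19 in SCC15 against 1.83, 12.2 and 2.02 in SCC25, and the libraries of the lines overlapped. TWIST2 (230.2 ± 26.4) and POSTN (149 ± 13.6) are listed in the SCC15 table alone.

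**Figure D1:**
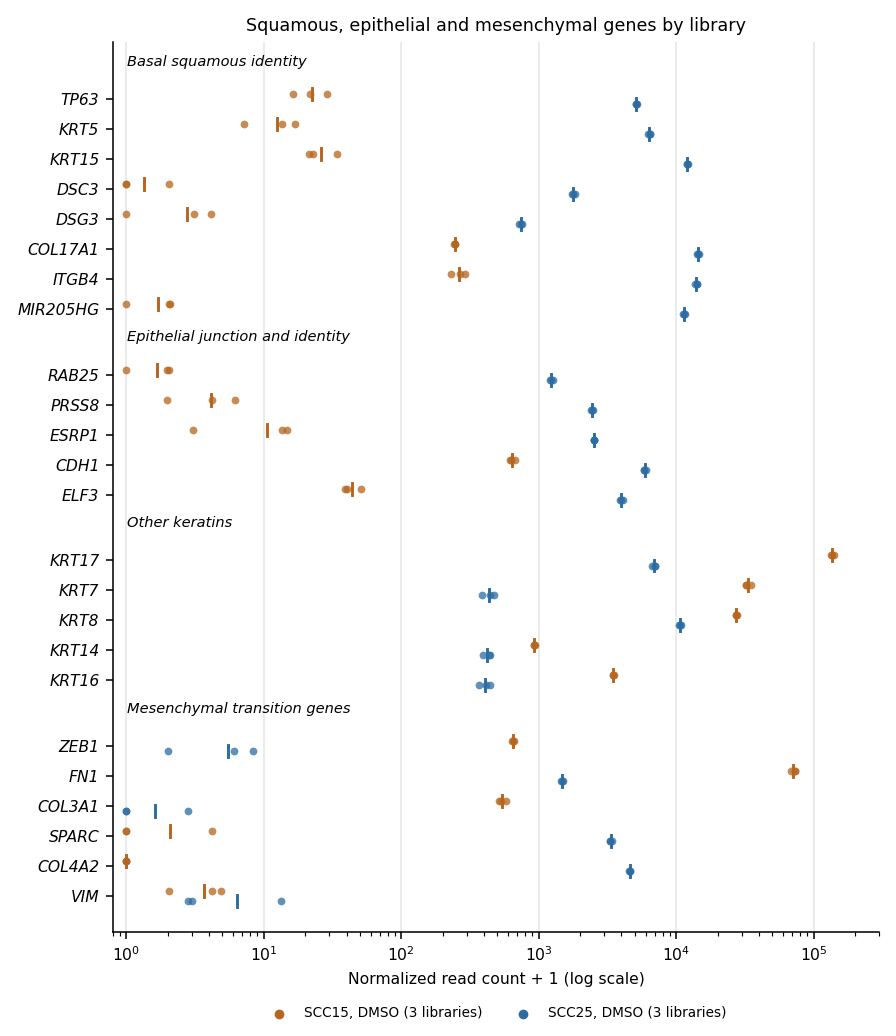
Normalized read counts plus 1 (log scale) of 24 genes of squamous, epithelial and mesenchymal identity in the 3 SCC15 (brown) and 3 SCC25 (blue) DMSO libraries. Points are libraries and vertical bars are means. TP63, KRT5, KRT15, DSC3 and the junction genes lie to the right in SCC25, KRT17, KRT7, ZEB1, FN1 and COL3A1 lie to the right in SCC15, and VIM lies at the left edge in both lines.

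Of 57 terminal differentiation genes, 24 are in both tables and 15 were tested, 4 of them over 2-fold higher in SCC15 and 6 in SCC25. A further 20 are in the SCC25 table alone, 7 of these with a mean of at least 10. SCC15 had more of the elastase inhibitor PI3 (9383 ± 361 in SCC15 and 411 ± 12.4 in SCC25, 4.51), of ECM1 (573 ± 23.1 in SCC15 and 39.4 ± 3.38 in SCC25, 3.83) and of SPINK5 (361 ± 64.2 in SCC15 and 41.8 ± 7.10 in SCC25, 3.08), the kallikrein inhibitor lost in Netherton syndrome. SCC25 had more CSTA (154 ± 7.36 in SCC15 and 563 ± 12.4 in SCC25, -1.86), a cysteine protease inhibitor of the cornified envelope, and DMKN (1270.0 ± 40.4 in SCC15 and 2993 ± 36.1 in SCC25, -1.24). KLK5, a kallikrein that starts the shedding cascade, is listed for SCC25 alone at 922 ± 39.2. The gene with the largest log2 difference of all protein-coding genes named by the rule was another kallikrein inhibitor, SPINK6 (ENSG00000178172, chromosome 5, 148202794 to 148215137). It had 20410.5, 21278 and 20492 in the SCC15 libraries and 1.83, 3.06 and 2.02 in the SCC25 libraries (log2 difference 12.63, standard error 0.114, limma adjusted p = 4.38e-21). PADI3, a peptidylarginine deiminase of hair and epidermis, went the other way with 2.08, 0 and 3.19 in SCC15 against 2757, 2658 and 2633 in SCC25.

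The list of mucosal defence, mucin and acute phase genes leaned to SCC25. Of 32 tested members, 19 were over 2-fold higher there and 3 in SCC15 (59.4% and 9.38%). The median of -2.42 was -0.99 over genes with at least 10 in every library. LCN2 (ENSG00000148346, chromosome 9, 128149071 to 128153455), the iron-trapping lipocalin, had 70.6, 56.9 and 71.3 in the SCC15 libraries and 26367, 26268 and 27069.5 in the SCC25 libraries (log2 difference -8.63, standard error 0.0651, limma adjusted p = 5.74e-22). PIGR, the receptor that carries IgA across epithelia, had 0, 3.86 and 2.13 in SCC15 against 831, 900.0 and 835 in SCC25, and the membrane protease TMPRSS4 had 0, 0.964 and 1.06 in SCC15 against 3976, 4029 and 3994 in SCC25, a ratio of 5878 (95% counting interval 1627 to 48545). All 3 were lower in every SCC15 library, PIGR and TMPRSS4 at the limit of detection. The members of this list higher in SCC15 included LY6K (2437 ± 134 in SCC15 and 462 ± 37.4 in SCC25, 2.40), whose part in mucosal defence was not examined. They also included the protease inhibitor SLPI (8723 ± 86.1 in SCC15 and 2933 ± 146 in SCC25, 1.57).

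The calcium-binding S100 proteins divided between the lines, 8 of 16 tested members being over 2-fold higher in SCC15 and 5 in SCC25. S100A9, a subunit of calprotectin, had 837, 727 and 891 in SCC15 against 34926, 34322 and 33054 in SCC25 (-5.38), and S100A2, an S100 protein of basal keratinocytes, was 314 ± 28.1 in SCC15 and 8746 ± 238 in SCC25 (-4.80). S100A7, psoriasin, had 1.04, 0.964 and 0 in SCC15 against 1392, 1346 and 1196 in SCC25, a ratio of 1931 (95% counting interval 534 to 15951). These 3 were higher in SCC25, whereas S100P (635 ± 17.6 in SCC15 and 4.33 ± 2.24 in SCC25, 7.004), S100A4 (614 ± 66.9 in SCC15 and 44.6 ± 11.4 in SCC25, 3.78) and S100A10 (8169 ± 348 in SCC15 and 820.0 ± 37.4 in SCC25, 3.32), a partner of annexin A2, were higher in SCC15.

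**Figure D2:**
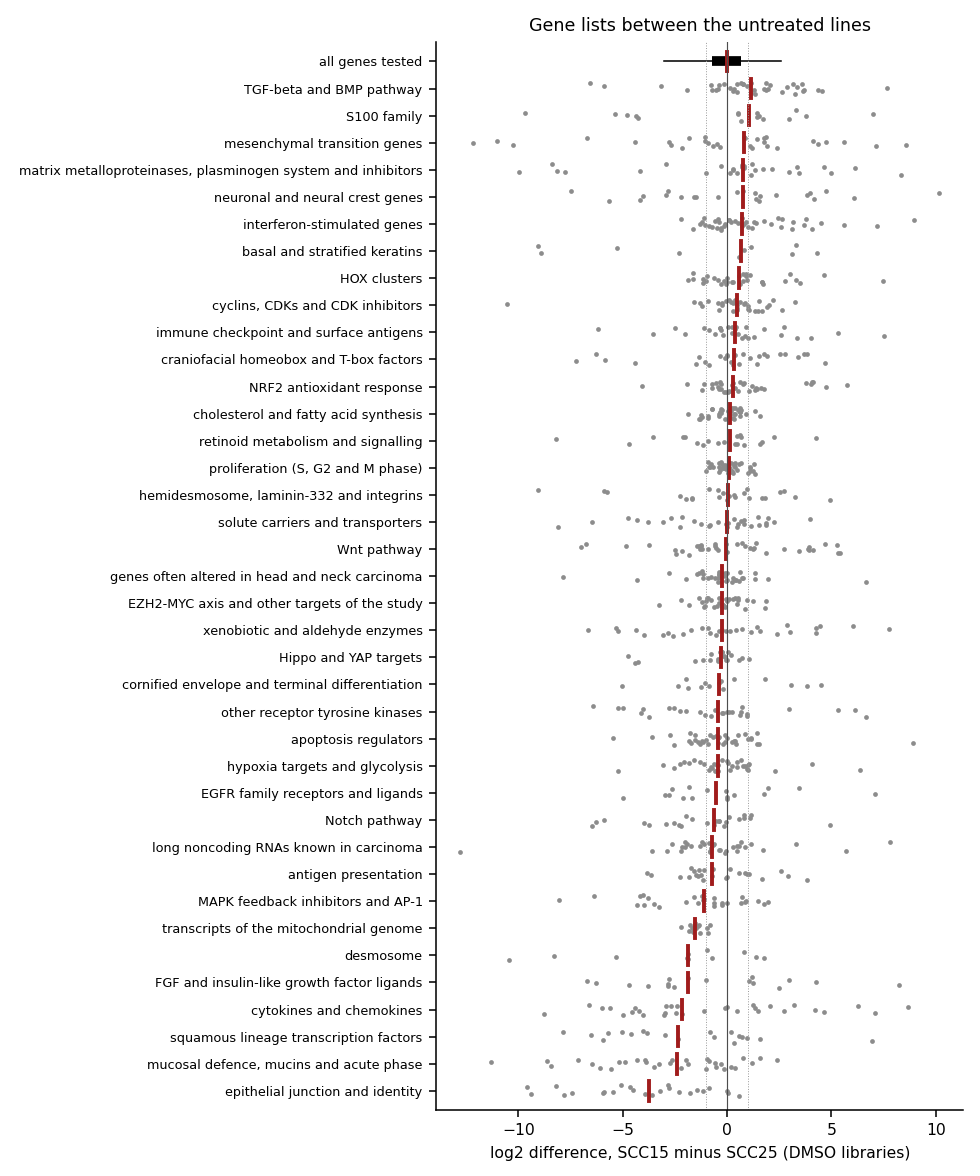
Log2 difference (SCC15 minus SCC25, DMSO libraries) of the tested members of each gene list with at least 10 of them, ordered by the median. Grey points are genes and red bars medians, dotted lines mark 2-fold, and the top row shows all 16942 genes tested (thin line 5th to 95th percentile, thick line quartiles). Epithelial junction genes have the lowest median, -3.75, and the TGF-beta and BMP pathway the highest, 1.13, while all genes are centred at -0.0036.

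Growth factor receptors differed in both directions. EGFR (ENSG00000146648, chromosome 7, 55019021 to 55211628), the receptor most often overexpressed in HNSCC, had 5312, 5303 and 5254 in the SCC15 libraries and 36203, 36588 and 36973 in the SCC25 libraries (log2 difference -2.79, standard error 0.0213, limma adjusted p = 6.27e-22), a 6.92-fold difference. FGFR1 (ENSG00000077782, chromosome 8, 38400215 to 38468834), a fibroblast growth factor receptor, had 2400.1, 2152 and 2288 in the SCC15 libraries and 17.3, 25.5 and 22.2 in the SCC25 libraries (log2 difference 6.67, standard error 0.118, limma adjusted p = 1.51e-17), a difference of 102-fold. Every SCC25 library was higher for EGFR and every SCC15 library for FGFR1. ERBB2 did not pass the test, at 2272, 2057 and 2072 in SCC15 against 2105, 2105 and 2215 in SCC25 (log2 difference -0.0064, standard error 0.0412, limma adjusted p = 0.889). MET, the hepatocyte growth factor receptor, was 2987 ± 69.0 in SCC15 and 11732 ± 27.3 in SCC25 (-1.97), and FGFR2, the epithelial FGF receptor, was 8.96 ± 4.28 in SCC15 and 352 ± 22.5 in SCC25 (-5.23). The Eph receptors EPHA4 (491 ± 29.4 in SCC15 and 6.21 ± 1.61 in SCC25, 6.11) and EPHB6 (624 ± 18.5 in SCC15 and 15.5 ± 6.04 in SCC25, 5.31) were higher in SCC15, and EPHA1 (19.2 ± 5.53 in SCC15 and 625 ± 32.7 in SCC25, -4.99) and the platelet-derived growth factor receptor PDGFRB (2.74 ± 3.95 in SCC15 and 214 ± 7.03 in SCC25, -6.41) in SCC25. Over the lists, 4 of 16 EGFR family genes were over 2-fold higher in SCC15 and 7 in SCC25 (25% and 43.8%), and 4 of 28 other receptor kinases in SCC15 and 12 in SCC25 (14.3% and 42.9%), against 18.0% and 19.2% of all genes.

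Ligands of these receptors also differed. The EGFR ligand EPGN was 938 ± 118 in SCC15 and 6.30 ± 3.45 in SCC25 (7.10), while EGF (7.5001 ± 4.36 in SCC15 and 251 ± 16.5 in SCC25, -5.01) and HBEGF (177 ± 12.1 in SCC15 and 1377 ± 40.8 in SCC25, -2.96), further ligands of the receptor, were higher in SCC25. LRIG1, which marks ErbB receptors for degradation, was 635 ± 57.2 in SCC15 and 163 ± 12.02 in SCC25 (1.95). FGF2, basic fibroblast growth factor, had 10897, 11379 and 10828 in the SCC15 libraries and 561, 553 and 581 in the SCC25 libraries (log2 difference 4.29, standard error 0.0337, limma adjusted p = 8.39e-22), and was higher in every SCC15 library along with FGFR1. Of the binding proteins of insulin-like growth factors, IGFBP6 was 78513 ± 2591 in SCC15 and 263 ± 27.5 in SCC25 (8.22) and IGFBP3 was 551 ± 16.001 in SCC15 and 14181 ± 860.3 in SCC25 (-4.68). The platelet-derived growth factor genes PDGFB (-6.70) and PDGFC (-6.29) were higher in SCC25 and VEGFC (2.98), which acts on lymphatic vessels, in SCC15. In the list of such ligands and binding proteins, 7 of 17 were over 2-fold higher in SCC15 and 9 in SCC25, and its median of -1.88 became positive, 0.59 and 1.03, when the filter on low counts was removed or made stricter.

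Genes induced by the MAP kinase pathway leaned to SCC25. 3 of 28 tested members were over 2-fold higher in SCC15 and 15 in SCC25, with a median log2 difference of -1.11. These were 10.7% and 53.6% of the members, against 18.0% and 19.2% of all genes. EGR1 (ENSG00000120738, chromosome 5, 138465490 to 138469315), an immediate early transcription factor, had 543, 538 and 501 in the SCC15 libraries and 43466, 43912 and 44642 in the SCC25 libraries (log2 difference -6.38, standard error 0.0318, limma adjusted p = 6.74e-24). ETV1 had 0, 0 and 2.13 in SCC15 against 405, 404 and 367 in SCC25, and SPRY1, a feedback inhibitor, was 22.6 ± 4.79 in SCC15 and 467 ± 26.7 in SCC25 (-4.33). Its relatives SPRY2 (827 ± 26.8 in SCC15 and 210.2 ± 7.45 in SCC25, 1.97) and SPRY4 (734 ± 59.5 in SCC15 and 217 ± 32.0 in SCC25, 1.76) and the ETS factor ETV5 (1447 ± 77.7 in SCC15 and 517 ± 17.5 in SCC25, 1.48) were higher in SCC15.

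MYC (ENSG00000136997, chromosome 8, 127735434 to 127741434), the factor whose degradation the study follows, had 773, 754 and 746 in the SCC15 libraries and 7145, 7474 and 7308 in the SCC25 libraries (log2 difference -3.27, standard error 0.0328, limma adjusted p = 1.45e-20), a 9.63-fold higher level in SCC25 with no overlap. EZH2, the histone H3K27 methyltransferase that the study pairs with it, had 1362, 1443 and 1453 in SCC15 against 1292, 1331 and 1319.5 in SCC25 (log2 difference 0.11, standard error 0.0399, limma adjusted p = 0.0183), a difference below 2-fold. That call was lost with the deposited scaling (0.0085, limma adjusted p = 0.849), without SCC25 replicate 1 (0.090, limma adjusted p = 0.0875) and without SCC25 replicate 3 (0.11, limma adjusted p = 0.0533). HSP90AA1, which encodes the chaperone HSP90 alpha, was 26127 ± 987 in SCC15 and 14537 ± 104 in SCC25 (0.85). FBXW7, the substrate receptor of a ubiquitin ligase for MYC, was 355 ± 18.8 in SCC15 and 689 ± 49.1 in SCC25 (-0.95), and of the ubiquitin enzymes UBA6 was 2719 ± 60.8 in SCC15 and 3205 ± 13.6 in SCC25 (-0.24), UBE2Z 3178 ± 97.9 in SCC15 and 4428 ± 36.7 in SCC25 (-0.48) and UBA1 15849 ± 167 in SCC15 and 6693 ± 81.5 in SCC25 (1.24). Of 33 tested members of the list of study targets, 3 were over 2-fold higher in SCC15 and 8 in SCC25 (9.09% and 24.2%, against 18.0% and 19.2% of all genes). Beside MYC these included SMAD7 (472 ± 44.9 in SCC15 and 129 ± 7.65 in SCC25, 1.86), XBP1 (9322 ± 152 in SCC15 and 2654 ± 107 in SCC25, 1.81), UNC5B (126 ± 17.1 in SCC15 and 589 ± 22.8 in SCC25, -2.22) and JARID2 (499.9 ± 32.9 in SCC15 and 1794 ± 62.9 in SCC25, -1.84), a cofactor of the complex that holds EZH2.

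Among developmental pathways, Notch genes leaned to SCC25 and TGF-beta and BMP genes to SCC15. Of 25 Notch genes, 3 were over 2-fold higher in SCC15 and 11 in SCC25 (12% and 44%, against 18.0% and 19.2% of all genes), with a median of -0.64. NOTCH3, a receptor of differentiating squamous cells, had 64.4, 73.3 and 81.9 in the SCC15 libraries and 6635, 6745 and 6459.7 in the SCC25 libraries (log2 difference -6.48, standard error 0.0703, limma adjusted p = 3.73e-20). NOTCH1, often mutated in HNSCC, was 688 ± 49.2 in SCC15 and 2695 ± 83.0 in SCC25 (-1.97), and the ligand DLL1 (21.7 ± 3.50 in SCC15 and 1727 ± 18.5 in SCC25, -6.26) and the target NRARP (18.2 ± 10.2 in SCC15 and 1032 ± 74.4 in SCC25, -5.88) were higher in SCC25 as well. NOTCH2 (6547 ± 126 in SCC15 and 2929.7 ± 30.9 in SCC25, 1.1598) and DLL3 (115 ± 22.8 in SCC15 and 2.97 ± 1.80 in SCC25, 4.94), an inhibitory ligand, were higher in SCC15.

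Of 39 TGF-beta and BMP genes, 20 were over 2-fold higher in SCC15 and 4 in SCC25 (51.3% and 10.3%), with a median of 1.13. The members higher in SCC15 included inhibitors of the pathway, BAMBI, a decoy receptor, at 864, 810.1 and 791 in the SCC15 libraries and 2.74, 2.04 and 5.04 in the SCC25 libraries (log2 difference 7.65, standard error 0.226, limma adjusted p = 1.13e-14), FSTL3 (6153 ± 543 in SCC15 and 299.5 ± 17.4 in SCC25, 4.35), which binds activin, and the inhibitory SMAD7. They also included the co-receptor TGFBR3 (419.8 ± 44.6 in SCC15 and 17.9 ± 8.43 in SCC25, 4.56) and the common mediator SMAD4 (1163 ± 29.8 in SCC15 and 295 ± 38.3 in SCC25, 1.98), often lost in HNSCC. The 4 members higher in SCC25 included the activin subunit INHBA (72.1 ± 14.9 in SCC15 and 4284 ± 250.4 in SCC25, -5.89), the stress cytokine GDF15 (39.5 ± 4.77 in SCC15 and 3784 ± 54.6 in SCC25, -6.55) and SMAD3 (1829.5 ± 74.5 in SCC15 and 16668 ± 279 in SCC25, -3.19), a transducer of TGF-beta.

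Wnt genes divided evenly, 15 of 39 being over 2-fold higher in SCC15 and 14 in SCC25, with a median of -0.053 that turned to 0.082 with equal library totals. SCC15 had more of the receptor FZD8 (221 ± 37.7 in SCC15 and 4.50 ± 2.25 in SCC25, 5.42), of LGR6 (273 ± 12.04 in SCC15 and 6.38 ± 3.50 in SCC25, 5.33) and of its ligand RSPO3 (144 ± 8.23 in SCC15 and 2.87 ± 1.46 in SCC25, 5.29). SCC25 had more of the nuclear factor LEF1 (1.29 ± 2.23 in SCC15 and 215 ± 14.8 in SCC25, -6.99) and of the ligands WNT4 (4.86 ± 3.35 in SCC15 and 149 ± 10.6 in SCC25, -4.84) and WNT3A, at 0, 1.93 and 1.06 in SCC15 against 169.7, 211 and 209 in SCC25. In the Hippo pathway, which restrains the co-activator YAP1, 1 of 22 genes was over 2-fold higher in SCC15 and 5 in SCC25 (4.55% and 22.7%), the latter share close to that of all genes. YAP1 itself did not pass the test (5894 ± 186 in SCC15 and 5965 ± 52.4 in SCC25), while its target CTGF was 202 ± 16.2 in SCC15 and 5538 ± 672 in SCC25 (-4.76) and AMOTL1 was 239 ± 8.90 in SCC15 and 4559 ± 38.1 in SCC25 (-4.25).

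The proteases that remodel matrix differed in both directions. Of 28 genes for matrix metalloproteinases, the plasminogen system and their inhibitors, 12 were over 2-fold higher in SCC15 and 7 in SCC25. These were 42.9% and 25%, against 18.0% and 19.2% of all genes. MMP2, gelatinase A, had 1229, 1058 and 1220.4 in the SCC15 libraries and 3.65, 4.08 and 1.008 in the SCC25 libraries (log2 difference 8.33, standard error 0.272, limma adjusted p = 4.18e-14), and TIMP1, an inhibitor of metalloproteinases, had 52986, 53938 and 55575 in the SCC15 libraries and 779, 724 and 826 in the SCC25 libraries (6.12). PLAU, urokinase, had 24.9, 35.7 and 11.7 in the SCC15 libraries and 23064, 23449 and 23383 in the SCC25 libraries (log2 difference -9.99, standard error 0.235, limma adjusted p = 5.88e-16). The other plasminogen activator, PLAT, was 43.5 ± 2.09 in SCC15 and 12703 ± 223 in SCC25 (-8.16). TIMP4 (101 ± 3.48 in SCC15 and 2.63 ± 2.13 in SCC25, 4.97) and the urokinase receptor PLAUR (4.64) were higher in SCC15. The metalloproteinases MMP7 (2.09 ± 2.83 in SCC15 and 495 ± 26.8 in SCC25, -7.74), MMP13 (0.321 ± 0.557 in SCC15 and 21.5 ± 2.18 in SCC25) and MMP10 (-2.91) were higher in SCC25, against the direction of MMP2, as was ADAM19 with 3.11, 0 and 0 in SCC15 against 555, 553 and 515 in SCC25.

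Interferons induce a set of antiviral genes through factors such as STAT2 and IRF9, which bind the interferon-stimulated response element (ISRE), and some of these genes are also turned on directly by IRF3 or by nucleic acid sensors. Of 43 interferon-stimulated genes tested, 18 were over 2-fold higher in SCC15 and 6 in SCC25 (41.9% and 13.95%), with a median of 0.71. OASL (ENSG00000135114, chromosome 12, 121019111 to 121039242), an antiviral 2'-5'-oligoadenylate synthetase-like protein, had 80544, 82567 and 80214 in the SCC15 libraries and 556, 561 and 537 in the SCC25 libraries (log2 difference 7.20, standard error 0.0262, limma adjusted p = 1.63e-25). RSAD2 (ENSG00000134321, chromosome 2, 6865806 to 6898239), viperin, had 28805, 30178 and 28301 in the SCC15 libraries and 46.5, 60.2 and 66.5 in the SCC25 libraries (log2 difference 8.97, standard error 0.0866, limma adjusted p = 9.75e-21). CMPK2 had 3102, 3063 and 2999 in SCC15 against 63.0, 75.5 and 51.4 in SCC25 (5.59). All SCC15 libraries lay far above all SCC25 libraries for these 3 genes. IFIT1 (18863 ± 592 in SCC15 and 827 ± 34.8 in SCC25, 4.51), HERC5 (4.07), ISG15 (30343 ± 319 in SCC15 and 2212 ± 27.7 in SCC25, 3.78), a ubiquitin-like modifier, and the RNA sensor DDX58 (13426 ± 755 in SCC15 and 1058 ± 58.8 in SCC25, 3.66) were higher in SCC15 too.

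The list was not uniform. EPSTI1 (75.5 ± 7.48 in SCC15 and 352 ± 1.5001 in SCC25, -2.21), LGALS3BP (3821 ± 208 in SCC15 and 11663 ± 142 in SCC25, -1.61) and XAF1 (193 ± 6.83 in SCC15 and 474 ± 24.6 in SCC25, -1.29) were higher in SCC25, as were MX1 (-1.07), IFI35 (-1.20) and IFITM1 (-1.12), and the transducers STAT2 (0.19) and IRF9 (-0.30) differed by less than 2-fold. Of the interferon genes, IFNB1 was 139.995 ± 11.5 in SCC15 and 1.62 ± 0.545 in SCC25 (5.77) and IFNL1 was 659.6 ± 41.0 in SCC15 and 2.91 ± 0.828 in SCC25 (7.42), low next to OASL but higher in SCC15.

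The ISRE core was searched as GAAANNGAAA on both strands in the 250 bases before each start. A RefSeq promoter sequence was matched by gene symbol for 33 of the 43 tested genes. The rest, OASL and DDX58 among them, were not searched. The ISRE core occurred in 22 of these 33 (66.7%) and in 3.02% of all promoters (3.71% of genes). Of the 22 with it, 10 were over 2-fold higher in SCC15 and 4 in SCC25 (median 0.871), and of the 11 without it 4 and 2 (median -0.0907). CMPK2 has no match in this window. The stretches below show the motif, in capitals, in RSAD2 (chr2:6877607-6877666), IFIT1 (chr10:89392482-89392554) and ISG15 (chr1:1013359-1013424), all on the plus strand of GRCh38.p14, with the first match 145, 116 and 113 bases before the start and 2 overlapping matches in ISG15. They are shown because these genes are among those with the larger line differences.
RSAD2: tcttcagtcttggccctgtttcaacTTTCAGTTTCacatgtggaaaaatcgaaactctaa
IFIT1: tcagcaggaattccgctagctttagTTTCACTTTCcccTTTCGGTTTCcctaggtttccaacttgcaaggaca
ISG15: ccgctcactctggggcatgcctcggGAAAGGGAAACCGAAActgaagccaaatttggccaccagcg

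Cytokines and chemokines were among the most divergent lists, with a median absolute log2 difference of 3.00 against 0.70 over all genes, and 11 of 31 tested members were over 2-fold higher in SCC15 and 17 in SCC25. CCL5, a chemokine for T cells and monocytes, had 33079.8, 31993 and 33286 in the SCC15 libraries and 94.0, 72.4 and 74.6 in the SCC25 libraries (log2 difference 8.66, standard error 0.0696, limma adjusted p = 1.03e-21). IL6 had 6515, 6948 and 6606 in the SCC15 libraries and 75.7, 83.7 and 96.8 in the SCC25 libraries (6.28). TNF had 2.08, 1.93 and 1.06 in the SCC15 libraries and 1087, 1218 and 1167 in the SCC25 libraries (-8.77). SCC15 libraries were higher throughout for CCL5 and IL6, and SCC25 libraries for TNF. The alarmin IL33 was 411 ± 5.49 in SCC15 and 2.23 ± 1.33 in SCC25 (7.08), the chemokine CCL20 30.4 ± 5.44 in SCC15 and 1964 ± 75.6 in SCC25 (-5.98), and the interleukin-1 antagonist IL1RN had 0, 0 and 1.06 in SCC15 against 109.5, 131 and 130.0 in SCC25. CCL3L1 (2502 ± 143 in SCC15 and 1.55 ± 1.89 in SCC25, 10.21) and the decoy receptor IL13RA2, with 1515, 1474 and 1533 in SCC15 against 2.74, 0 and 0 in SCC25, were among the genes with the largest differences, although CCL3L1 has near-identical copies.

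Antigen presentation genes also differed in both directions. SCC15 had more of the class II activator CIITA (1293 ± 16.8 in SCC15 and 170.3 ± 12.8 in SCC25, 2.92) and of HLA-DRA (1059 ± 27.4 in SCC15 and 178 ± 15.3 in SCC25, 2.57) and HLA-DRB1 (1659 ± 19.0003 in SCC15 and 118 ± 13.8 in SCC25, 3.81), whereas CD74, the class II invariant chain, was higher in SCC25 (743 ± 27.4 in SCC15 and 9271 ± 236 in SCC25, -3.64). SCC25 had more HLA-C (6328 ± 500.4 in SCC15 and 30355 ± 241 in SCC25, -2.26) and ERAP2 (281 ± 17.2 in SCC15 and 3968 ± 53.9 in SCC25, -3.82), which trims peptides for class I. Over the list, 5 of 25 members were over 2-fold higher in SCC15 and 12 in SCC25 (20% and 48%, against 18.0% and 19.2% of all genes). HLA genes vary between people and resemble each other, so their counts are uncertain. Of 29 surface antigens, 8 were over 2-fold higher in SCC15 and 5 in SCC25. These were 27.6% and 17.2%, the first above the 18.0% of all genes and the second near their 19.2%. The 8 included CD24 (3140.4 ± 89.0 in SCC15 and 16.4 ± 3.54 in SCC25, 7.51), CD70 (5159.9 ± 73.7 in SCC15 and 128 ± 8.502 in SCC25, 5.32) and the complement regulator CD55 (7166 ± 85.3 in SCC15 and 446 ± 12.8 in SCC25, 4.005). The 5 higher in SCC25 included CD47 (3012 ± 17.2 in SCC15 and 17085 ± 232 in SCC25, -2.50), which restrains phagocytosis, and NECTIN4 (6.09 ± 1.61 in SCC15 and 506 ± 27.4 in SCC25, -6.19).

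**Figure D3:**
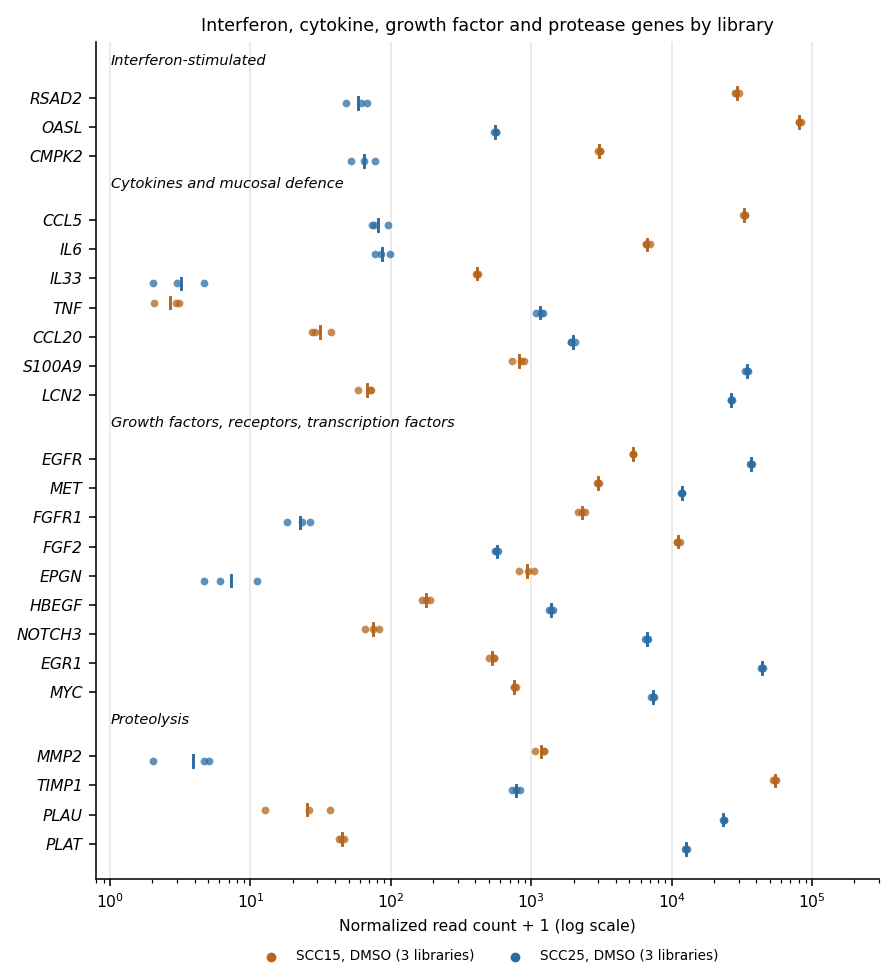
Normalized read counts plus 1 (log scale) of 23 genes of the interferon response, cytokines and mucosal defence, growth factor signalling and proteolysis in the DMSO libraries, drawn as points per library with vertical bars for the means, SCC15 in brown and SCC25 in blue. RSAD2, OASL, CCL5, IL6, FGFR1, FGF2, MMP2 and TIMP1 lie to the right in SCC15, and TNF, S100A9, LCN2, EGFR, NOTCH3, EGR1, MYC, PLAU and PLAT in SCC25.

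Detoxifying enzymes differed strongly in some members. Of 37 targets of NRF2, the factor of the antioxidant response, 13 were over 2-fold higher in SCC15 and 4 in SCC25. These were 35.1% and 10.8%, against 18.0% and 19.2% of all genes. NFE2L2, which encodes NRF2, was 3168 ± 107 in SCC15 and 2075 ± 55.9 in SCC25 (0.61). The aldo-keto reductases AKR1C1 (1953 ± 128 in SCC15 and 72.6 ± 9.62 in SCC25, 4.74), AKR1C2 (363 ± 17.7 in SCC15 and 21.4 ± 2.18 in SCC25, 4.03) and AKR1C3 (2143 ± 155 in SCC15 and 124 ± 7.84 in SCC25, 4.10) were higher in SCC15, though their reads may be shared. CYP4F11 (16.4 ± 3.88 in SCC15 and 288 ± 28.3 in SCC25, -4.08), PGD of the pentose phosphate pathway (919.6 ± 47.5 in SCC15 and 3479.7 ± 8.87 in SCC25, -1.92) and SRXN1 (188 ± 57.5 in SCC15 and 417 ± 32.6 in SCC25, -1.18) were higher in SCC25. Of the xenobiotic and aldehyde enzymes, 11 of 31 were over 2-fold higher in each line. The microsomal glutathione transferase MGST1 had 3236, 3469 and 3398 in SCC15 against 15.5, 13.3 and 14.1 in SCC25 (7.78), and AHRR, a repressor of the aryl hydrocarbon receptor, was 1086 ± 8.95 in SCC15 and 50.8 ± 17.8 in SCC25 (4.45). ALDH1A3, which makes retinoic acid, was 650.5 ± 31.2 in SCC15 and 10108 ± 106 in SCC25 (-3.96) and ALDH7A1 had 1.04, 0.964 and 2.13 in SCC15 against 3725, 3608 and 3543 in SCC25. The vitamin D enzymes lay in opposite directions, CYP27B1, which activates the hormone, at 194 ± 20.8 in SCC15 and 9.64 ± 4.35 in SCC25 (4.28) and CYP24A1, which breaks it down, at 61.5 ± 5.65 in SCC15 and 2469.6 ± 78.3 in SCC25 (-5.31). In the retinoid list, 4 of 20 were over 2-fold higher in SCC15 and 7 in SCC25. These were 20% and 35%, the first near the 18.0% of all genes and the second above their 19.2%. The 4 included CYP26B1 (4.25), which degrades retinoic acid. The 7 included DHRS3 (-4.70), which turns retinal to retinol, and CRABP2 (-3.54).

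All 15 transcripts of the mitochondrial genome that were tested were higher in SCC25, 12 of them over 2-fold, with a median of -1.52. They took 1.69% to 1.73% of the reads in the SCC15 libraries and 4.37% to 4.54% in the SCC25 libraries. The complex I subunit MT-ND3 was 3631 ± 82.2 in SCC15 and 16686 ± 622 in SCC25 (-2.20) and MT-CYB, of complex III, 10906 ± 414 in SCC15 and 38878 ± 1039.9 in SCC25 (-1.83). The number of mitochondrial genomes per cell was not measured, and in bulk RNA fewer cells with a transcript and less of it per cell cannot be told apart.

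Hypoxia targets and glycolytic genes were mixed, 5 of 36 being over 2-fold higher in SCC15 and 9 in SCC25 (13.9% and 25%, against 18.0% and 19.2% of all genes). The carbonic anhydrases CA9 (48.0 ± 3.41 in SCC15 and 1814 ± 60.2 in SCC25, -5.21) and CA12 (637 ± 20.4 in SCC15 and 37.5 ± 5.42 in SCC25, 4.06) lay in opposite directions, PFKFB4 (474 ± 6.89 in SCC15 and 4.94 ± 1.92 in SCC25, 6.37), a regulator of glycolysis, and ANGPTL4 (2.32) were higher in SCC15, and the aldolases ALDOA (300.4 ± 15.5 in SCC15 and 1752 ± 7.28 in SCC25, -2.54) and ALDOC (-3.07) in SCC25. Genes of cholesterol and fatty acid synthesis differed little, with 2 of 36 over 2-fold higher in SCC15 and 5 in SCC25 and differences from -1.89 (TM7SF2) to 1.56 (SC5D).

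The genes of S, G2 and M phase were close between the lines, with a median absolute log2 difference of 0.37 against 0.70 over all genes. Of 42 tested, 7 were over 2-fold higher in SCC15 and 1 in SCC25. These were 16.7% and 2.38%, the first near the 18.0% of all genes and the second below their 19.2%. The median of 0.099 became -0.0027 with the deposited scaling. The members past 2-fold included the mitotic genes TPX2 (7867 ± 99.2 in SCC15 and 3212 ± 71.3 in SCC25, 1.29) and KIF20A (1.34) in SCC15 and the helicase subunit MCM7 (4679 ± 136 in SCC15 and 9457 ± 145 in SCC25, -1.02) in SCC25. Cyclins, CDKs and CDK inhibitors differed more, with a median absolute log2 difference of 0.90 against 0.37 for the genes of S, G2 and M phase. Of 33 tested, 10 were over 2-fold higher in SCC15 and 4 in SCC25, with a median of 0.47. These were 30.3% and 12.1%, against 18.0% and 19.2% of all genes. CCND2, cyclin D2, had 0, 1.93 and 0 in the SCC15 libraries and 2063, 2232 and 2157 in the SCC25 libraries, a ratio of 3157 (95% counting interval 874 to 26072). CCND1, cyclin D1, which is often amplified in HNSCC, had 5119, 5122 and 5160.4 in the SCC15 libraries and 11453, 11816 and 11545 in the SCC25 libraries (log2 difference -1.18, standard error 0.0239, limma adjusted p = 9.17e-17). CDKN2A, the gene of p16 and p14ARF, had 8245, 7888 and 7703 in the SCC15 libraries and 3258, 2961 and 3054 in the SCC25 libraries (1.36). CCND1 and CCND2 were thus higher in every SCC25 library and CDKN2A in every SCC15 library, as were the inhibitors CDKN2C (4245 ± 152 in SCC15 and 446 ± 13.6 in SCC25, 3.25) and CDKN1A (5964 ± 242 in SCC15 and 944 ± 10.3 in SCC25, 2.66). CDK6 was 1092 ± 53.9 in SCC15 and 3302 ± 79.8 in SCC25 (-1.60).

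Of 38 apoptosis regulators, 7 were over 2-fold higher in SCC15 and 13 in SCC25. These were 18.4% and 34.2%, the first near the 18.0% of all genes and the second above their 19.2%. The 7 included BCL2L1 (2457 ± 59.6 in SCC15 and 893 ± 14.6 in SCC25, 1.46), which protects, and PMAIP1 (3395 ± 76.1 in SCC15 and 1265 ± 5.71 in SCC25, 1.42), which kills. The 13 higher in SCC25 included the inhibitor of apoptosis BIRC3 (1110.0 ± 25.8 in SCC15 and 7386 ± 107 in SCC25, -2.73) and the BH3-only genes BMF (-3.58) and BIK (-2.56). CASP14, the caspase of cornifying keratinocytes, had 621, 544 and 644 in SCC15 against 0.913, 0 and 0 in SCC25, with 1 read in SCC25.

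Homeobox genes keep a record of position in the embryo, and cells of the anterior tongue arise from tissue with little HOX expression. Of 39 HOX genes 33 were tested, 10 being over 2-fold higher in SCC15 and 6 in SCC25 (30.3% and 18.2%, against 18.0% and 19.2% of all genes). HOXC12 had 277, 229 and 255 in SCC15 against 0, 0 and 2.02 in SCC25, with 2 reads in SCC25, HOXA9 was 549.9 ± 18.7 in SCC15 and 48.7 ± 10.8 in SCC25 (3.49) and HOXB2 212 ± 10.9 in SCC15 and 7.54 ± 1.46 in SCC25 (4.65), while HOXA3 (229.5 ± 22.5 in SCC15 and 714 ± 33.9 in SCC25, -1.64) and HOXD9 (265 ± 24.04 in SCC15 and 594 ± 36.9 in SCC25, -1.161) were higher in SCC25. Of 28 craniofacial homeobox and T-box factors, 11 were over 2-fold higher in SCC15, among them DLX1 (213 ± 25.3 in SCC15 and 16.04 ± 4.45 in SCC25, 3.68), MSX1 (229 ± 30.4 in SCC15 and 33.4 ± 8.18 in SCC25, 2.76) and NKX2-5 (109 ± 19.1 in SCC15 and 7.25 ± 4.20 in SCC25, 3.84). The 7 higher in SCC25 included TBX1 (3.38 ± 1.09 in SCC15 and 334 ± 7.51 in SCC25, -6.29), a factor of the pharyngeal arches, EYA4 (5.47 ± 2.46 in SCC15 and 350.4 ± 12.3 in SCC25, -5.83) and EYA1, with 0, 0 and 2.13 in SCC15 against 212, 228 and 209.7 in SCC25. PITX1 (0.57) and PAX9 (-0.32), factors of the oral region, differed by less than 2-fold.

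The 12 protein-coding genes with the largest differences in each direction were not drawn from a single system. Beside SPINK6, CCL3L1 and IL13RA2, those higher in SCC15 were the neurofilament gene NEFH (3754, 4034 and 3680.4 against 0, 3.06 and 0), the lipolysis inhibitor G0S2 (4470.2, 4355 and 4649 against 1.83, 2.04 and 3.02) and the axon guidance receptor ROBO1 (2801, 2824 and 2922 against 2.74, 1.02 and 1.008). They also included ZNF83, ABCC9, MARCOL, TAF7L, the sodium channel SCN3A (1905 ± 14.3 in SCC15 and 2.30 ± 0.639 in SCC25) and CYP11A1, which starts steroid synthesis and had no read in SCC25, at least 594-fold higher in SCC15. Those higher in SCC25 were COL4A2, COL4A1, TMPRSS4, SPARC, ALDH7A1, CCND2, DSC3, PADI3, PLAU, S100A7, RAB25 and SLFN11. SLFN11, which blocks stressed replication forks, was 2.06 ± 1.81 in SCC15 and 2239 ± 88.0 in SCC25. The long noncoding RNAs with the largest differences were IGFL2-AS1 (2522 ± 43.6 in SCC15 and 2.20 ± 2.05 in SCC25), FAM106A and LINC02582 in SCC15 and MIR205HG, LINC02541 and ZNF503-AS1 in SCC25. For 180 tested genes the SCC15 libraries held at most 3 reads in all and for 109 the SCC25 libraries did, so that line differences at the far ends rest on the depth of the libraries.

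Genes listed in the table of a single line got no fold and no test. With a mean of at least 10 there were 309 of these for SCC15 (175 protein-coding) and 481 for SCC25 (283 protein-coding). Of the SCC15 genes, 42 share a name with another identifier, SOD2 being an example. Among those for SCC25 were the cancer-testis antigens MAGEA4 (4038 ± 88.9), MAGEA3 (2047 ± 50.9) and MAGEA6 (1896 ± 20.6), which normal tissues other than testis rarely express and of which MAGEA3 and MAGEA6 are close copies.

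Differences were unevenly spread along the genome, which is described here for 13344 protein-coding genes on chromosomes 1 to 22 and X. The median over all of them was 0.023, and 51.1% were above 0. Chromosome 3 had a median of 0.70, with 75.2% of its genes above 0 and 301 over 2-fold higher in SCC15 against 79 in SCC25. Chromosomes 18 (0.59) and X (0.57) also leaned to SCC15, and chromosomes 13 (-0.40), 6 (-0.39), 2 (-0.38) and 9 (-0.31) to SCC25. RNA levels do not measure copy number, which was not tested.

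Within chromosomes, the difference was followed as the median of each run of 25 neighbouring genes, and of 12792 runs 635 lay above 1 and 303 below -1. The longest stretch of runs above 0.5, chosen after the run medians were seen, took up much of chromosome 3, from TRNT1 to CLDND1 (chr3:3126916-98523066 on GRCh38). It held 361 genes, 330 of them above 0, with 224 over 2-fold higher in SCC15 and 15 in SCC25. The run from PTPRG to ROBO1 in this stretch had 25 of 25 genes above 0 and a median of 1.59. On chromosome 11, a stretch from UQCC3 to RPS3 (chr11:62670273-75422280) leaned the other way, with 197 of 224 genes below 0, 12 over 2-fold higher in SCC15 and 121 in SCC25, and a median of -1.06. It includes CCND1 and the run from SLC25A45 to C11orf68, where 0 of 25 genes were above 0 (median -1.71). Further stretches leaned to SCC15 on chromosome 16 from CYLD to ZNF821 (154 genes, 0.99), chromosome 5 from PLEKHG4B to MIER3 (120 genes, 1.03) and chromosome 10 from ZMYND11 to ZNF487 (118 genes, 0.71). To SCC25 leaned chromosome 7 from FAM20C to HOXA13 (122 genes, -0.99) and from HOXA13 to RABGEF1 (106 genes, -0.75).

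Genes often altered in HNSCC were set beside their neighbours within 1 Mb. Around EGFR 0 of 12 genes were above 0 (median -1.14), with LANCL2 at -1.19 and VOPP1 at -1.20, and around CCND1 3 of 16 were (median -0.87), with MYEOV at -3.58. Around FGFR1 19 of 20 genes were above 0 (median 1.20), with LETM2 at 2.06 and NSD3 at 0.64, and around SMAD4 7 of 9 (median 0.73). FGFR1 (6.67) and EGFR (-2.79) thus differed more than the median of the genes next to them. Around TP63 1 of 7 genes was above 0, P3H2 at 3.18, and around NOTCH1 18 of 62 were (median -0.45). The surroundings of ERBB2 (0.097) and CDKN2A (-0.013) had medians near 0, and PIK3CA (-0.078) did not pass the test. FAT1, a cadherin often mutated in HNSCC, was 6326 ± 270.4 in SCC15 and 8442 ± 76.3 in SCC25 (-0.42) and CASP8 945 ± 46.1 in SCC15 and 1271 ± 59.0 in SCC25 (-0.43).

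**Figure D4:**
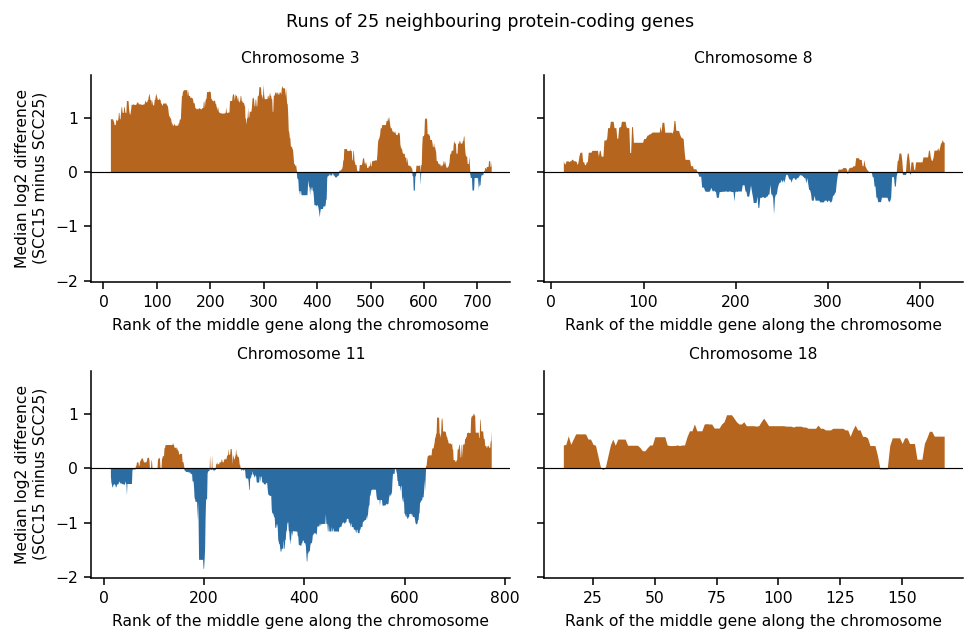
Median log2 difference (SCC15 minus SCC25) in each run of 25 neighbouring protein-coding genes along chromosomes 3, 8, 11 and 18, plotted against the rank of the middle gene, with brown above 0 (higher in SCC15) and blue below 0 (higher in SCC25). Chromosome 3 stays above 0 over the long stretch that holds 361 genes with a median of 1.24, and chromosome 11 falls below -1 within the stretch that holds CCND1.

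The same genes were followed in the squamocin libraries. When the 6 squamocin libraries were compared in the same way, 2610 of the 3057 genes over 2-fold higher in untreated SCC15 were tested, and 1832 were over 2-fold higher in SCC15 again, 59.9% of the genes with DMSO and 58.3% of the 3140 with squamocin. Of the 3258 genes higher in untreated SCC25, 1898 were over 2-fold higher in SCC25 again, 58.3% and 58.9% of the respective lists. Opposite differences over 2-fold were found for 20 and 19 genes. Of the 280 genes named by the rule and reported, 275 had no overlap between the lines with DMSO. The rule chose most of them for a large untreated difference, so this count was largely set in advance. Over all genes tested, 41.2% had no overlap with SCC15 higher and 41.5% with SCC25 higher. Of the 275, 250 had no overlap in the same order with squamocin, 18 overlapped and 7 were in the opposite order. The matching count over all genes with squamocin is not given here. TP63 with squamocin had 13.5, 9.24 and 5.51 in SCC15 against 5867, 5820.4 and 5274 in SCC25, KRT17 182772, 200776 and 313448 in SCC15 against 14899, 15033 and 16008 in SCC25 and EGFR 2932, 3021 and 2050.4 in SCC15 against 23034, 23224 and 21912 in SCC25. MYC had 1049.9, 885 and 888 in SCC15 against 1522, 1401 and 1484 in SCC25, so that the untreated order of the lines held there too. The gap was much smaller than with DMSO, where the means were 758 in SCC15 and 7309 in SCC25.

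**Figure D5:**
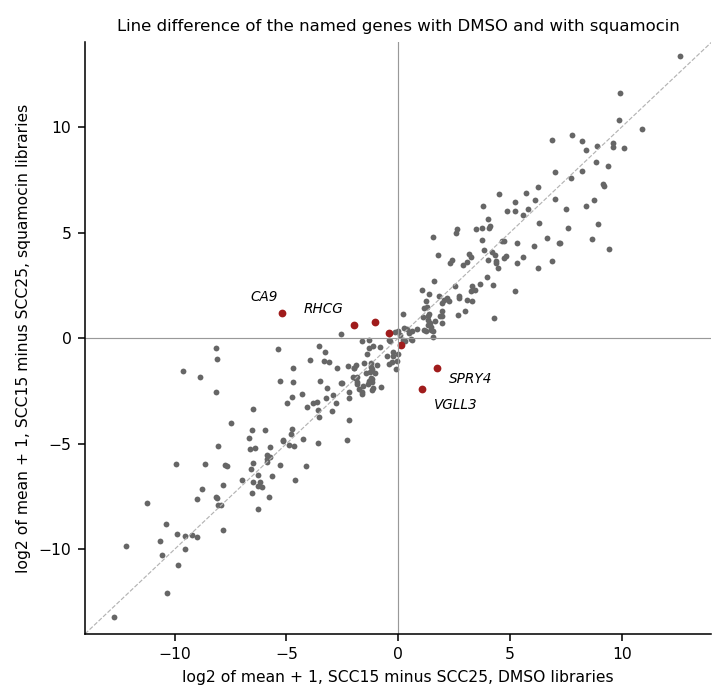
Log2 of the mean normalized count plus 1 in SCC15 minus the same in SCC25 for the named genes, with DMSO (horizontal axis) and with squamocin (vertical axis). Each point is a gene, the dashed line marks equal differences, and red points are the 7 genes whose line order was opposite without overlap, of which RHCG, SPRY4, VGLL3 and CA9 are labelled. Most points have the same sign on both axes, and most named genes were chosen for a large untreated difference.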

How the data were processed

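Total RNA of SCC15 and SCC25 cells was sequenced in 3 DMSO and 3 squamocin libraries per line. Per the labels and the study's methods, the authors aligned reads to GRCh38 with HISAT2 2.0.5 and counted them per gene with featureCounts 1.5.0-p3, and whether strand was used in counting is not given in the sources used here. The deposited values are a signal that the authors obtained by dividing each read count by a library factor, within each line, although the column names of SCC25 call it FPKM. Multiplied by that factor, 100% of the values came out whole (tolerance 0.01), and these reads were recovered. Columns with the log2 fold changes and p-values of the authors' own squamocin comparison are deposited too and were not used.

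The tables were joined on the gene identifier (26485 of 34227 genes in either table), and the 6 DMSO libraries were scaled together by the median of ratios. After adding 1 and taking log2, values were tested by limma 3.58.1 in R 4.3.3 (lmFit, eBayes with a trend, two-sided) on genes with a mean of at least 10, with Benjamini-Hochberg adjustment over all 16942. The replicate number was not used as a block, since libraries with the same number did not deviate together (correlations -0.0077, -0.024 and 0.012). The chi-square between replicates of a line was 1.69 to 2.62 per degree of freedom, above sampling noise, and they were counted separately. Genes with 0 reads in a line were set to 3 reads over its libraries, and genes with 1 to 3 reads are given by a ratio with a 95% interval that covers counting error only. Levels between genes were compared per kilobase of exon (GENCODE release 44). Promoters and the microRNA came from RefSeq tables on GRCh38.p14.

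The members and the 40 gene lists were chosen with earlier results of these data known. Genes were named as the 12 protein-coding and 3 long noncoding genes with the largest difference in each direction (called, mean of at least 100, no overlap), up to 3 members per list and direction (over 2-fold, mean of at least 50), 19 genes always given, and 18 genes altered in HNSCC with their 2 nearest neighbours, leaving out sex-specific genes. Some of these genes and 1 further list are not reported here. The rule left out list members that are named for context (the remaining squamous factors, junction, desmosome, HOX and interferon genes, IFNB1, IFNL1, metalloproteinases and genes listed for 1 line), which were chosen after their values were seen. Alternatives were other pseudocounts, filters and scalings, count models on those reads (edgeR 4.0.16, DESeq2 1.42.0), the replicate block, protein-coding genes alone, genes of either table with absent genes set to 0, a span of 3 Mb, and each library left out. The tests were also run on counts simulated from these libraries with 200 changed genes.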

Additional observations from a re-analysis of the deposited data

Results flagged for a closer look

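For 7 of the named genes, every library of 1 line lay above every library of the other with DMSO and the order was the opposite with squamocin. The difference between these differences was not tested for any of them. RHCG, an ammonia transporter of differentiated squamous epithelium, had a log2 difference of -1.96 with DMSO (72.7, 77.2 and 60.6 in SCC15 against 245, 299 and 284 in SCC25), and 212, 235 and 246 in SCC15 against 122, 144 and 178 in SCC25 with squamocin. SPRY4 differed by 1.76 with DMSO (723, 682 and 799 in SCC15 against 182, 226 and 244 in SCC25), against 370.4, 392 and 278 in SCC15 against 851, 939 and 945 in SCC25 with squamocin. VGLL3, a cofactor of TEAD factors, differed by 1.07 (269.9, 288 and 328 in SCC15 against 151, 119 and 152 in SCC25), against 59.3, 82.1 and 30.8 in SCC15 against 297, 342 and 298 in SCC25. CA9 differed by -5.21 (51.9, 46.3 and 45.8 in SCC15 against 1874, 1814 and 1754 in SCC25), against 169.6, 233 and 389 in SCC15 against 109, 131 and 106 in SCC25. Thus the untreated lead of SCC25 for RHCG and CA9 and of SCC15 for SPRY4 and VGLL3 was not present with the compound. The same turn was found for MCM7 (-1.02 with DMSO), CASP8 (-0.43) and EZH2 (0.11), whose differences were smaller. For EZH2 the untreated difference was 0.0085 and not called with the deposited scaling. Its call was also lost without SCC25 replicate 1 and without SCC25 replicate 3.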

How the results depend on the processing

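With the replicate number as a block, although the numbers did not pair the libraries, 6781 genes were called higher in SCC15 and 6893 in SCC25, 3059 and 3261 of them over 2-fold, 1821 and 1892 were over 2-fold with DMSO and with squamocin, and of the named genes FXR1 alone lost its call. The 6 counts moved by over 1.5 times in 1 setting, at least 10 in every library, which removes genes near 0 in a line by construction and left 2078 genes over 2-fold higher in SCC25 and 1164 and 1083 over 2-fold with both treatments. Leaving out a library kept 6038 to 6076 of the 6315 genes over 2-fold and reversed 0 of them. The median of all genes was 0.14 with equal library totals and -0.11 with the deposited scaling, and changes under these settings are relative to that. Several values changed sign. With the deposited scaling these were hemidesmosome genes (-0.053), proliferation genes (-0.0027), transporters (-0.094) and FXR1 (-0.040). With equal totals they were Wnt genes (0.082), ERBB2 (0.13), PIK3CA (0.058), YAP1 (0.12), ZMAT3 (0.093) and the surroundings of CDKN2A (0.12), and with TMM factors ERBB2 (0.0033). With all genes above 0 they were ligands of FGF and insulin-like growth factor receptors (0.59), cancer-testis antigens (0.012) and transporters (-0.012), and with at least 10 in every library the ligands (1.03) and xenobiotic enzymes (0.052). The surroundings of ERBB2 within 3 Mb gave -0.0028. Over the fits that left out a library each, the values ran from -0.018 to 0.023 for transporters, -0.036 to 0.031 for ERBB2, -0.033 to 0.022 for YAP1 and -0.082 to 0.032 for ZMAT3. The cause of these turns was not tested. ERBB2, PIK3CA and YAP1, which did not pass the test, were called higher in SCC25 with the deposited scaling (-0.11, -0.18 and -0.12). With equal totals, ERBB2 and YAP1 were called the other way, higher in SCC15 (0.13 and 0.12), and PIK3CA was not called. The median of cytokines moved from -2.13 to -0.081 over genes with at least 10 in every library. Depth limits the genes near 0 in a line, for which folds are bounds or carry wide intervals.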

Other observations

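Genes of neurons and neural crest were expressed in both lines and divided between them, 11 of 23 tested members being over 2-fold higher in SCC15 and 9 in SCC25. L1CAM, a neural adhesion molecule, was 5097 ± 222 in SCC15 and 188 ± 13.02 in SCC25 (4.75) and UCHL1, a neuronal deubiquitinase, 149 ± 6.78 in SCC15 and 1.70 ± 2.13 in SCC25 (6.11). NGFR, the low-affinity nerve growth factor receptor, which basal squamous cells also express, was 20.7 ± 3.22 in SCC15 and 3807 ± 64.1 in SCC25 (-7.47), the guidance ligand SLIT2 2.71 ± 0.518 in SCC15 and 185 ± 16.3 in SCC25 (-5.65) and the synaptic vesicle gene SYT1 12.9 ± 5.06 in SCC15 and 241 ± 19.2 in SCC25 (-4.19). ROBO1, the receptor of SLIT2, was higher in SCC15. Of long noncoding RNAs known in carcinoma, 5 of 35 were over 2-fold higher in SCC15 and 13 in SCC25. These were 14.3% and 37.1%, the first below the 18.0% of all genes and the second above their 19.2%. Those higher in SCC15 were led by FENDRR (1139 ± 51.8 in SCC15 and 4.29 ± 1.67 in SCC25, 7.80), LINC01133 (5.70) and MIR100HG (3.32). Those higher in SCC25 included AFAP1-AS1 (42.8 ± 9.27 in SCC15 and 521 ± 15.1 in SCC25, -3.60) and LINC00511 (-2.89).

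Of 31 transporters tested, 8 were over 2-fold higher in SCC15 and 11 in SCC25 (25.8% and 35.5%, against 18.0% and 19.2% of all genes). The potassium channel KCNN4 (2211 ± 83.4 in SCC15 and 139 ± 11.3 in SCC25, 3.99), the zinc and iron transporter SLC39A14 (4619.9 ± 5.18 in SCC15 and 1198 ± 4.25 in SCC25, 1.95) and the drug exporter ABCG2 (138 ± 10.2 in SCC15 and 28.0 ± 1.95 in SCC25, 2.26) were higher in SCC15. The glutamine transporter SLC38A5 (3.39 ± 0.409 in SCC15 and 1193 ± 14.97 in SCC25, -8.09), the monocarboxylate transporter SLC16A7 (5.55 ± 4.41 in SCC15 and 505 ± 22.3 in SCC25, -6.47) and the sodium channel subunit SCNN1A (247 ± 19.5 in SCC15 and 6617 ± 65.6 in SCC25, -4.74), the channel that PRSS8 activates, were higher in SCC25. Of 6 genes tested from the list of cancer-testis antigens, the 4 higher in SCC25 included PRAME, with 2.08, 0 and 0 in SCC15 against 506, 486 and 435 in SCC25, and DDX43 (9.39 ± 4.09 in SCC15 and 253 ± 6.61 in SCC25). MAGED2, a gene of the list whose restriction to testis was not examined, was higher in SCC15 (2095 ± 19.4 in SCC15 and 952 ± 48.1 in SCC25).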
